A study of Mus musculus with 5 samples.

Results

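The aminoacyl-tRNA synthetase genes encode the enzymes that join each amino acid to its tRNA, and the set described here holds 36 of them among the 22026 gene symbols of each library. They were chosen by symbol alone, 20 for the enzymes of the cytosol and 16 for those of the mitochondria, and all 36 symbols were found. All 36 also passed the filter, an average of 1 FPKM or more over the 5 libraries, which 13144 genes of the series passed. FPKM is the number of fragments scaled to transcript length and to the mapped reads of the library.

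The 5 RNA-seq libraries came from mouse 4-cell embryos of the strain B6D2F1, and every embryo had been made by nuclear transfer, in which a donor nucleus is placed in an oocyte that lacks its own. The groups are embryos with an H3.3 knockdown that were given H3.3 mRNA, embryos with an H3.3 knockdown that were given H3.2 mRNA, embryos with the H3.3 knockdown alone, embryos treated with luciferase, and untreated embryos, and each group is 1 library. There is thus no replicate, and no p-value can be given. The title of the H3.2 mRNA library names H3.2, while its treatment tag names H3.3 mRNA, and the title was followed. No source used here states the donor cell, the number of embryos in a library or the form in which luciferase was given. The labels call the knockdown, H3.3 mRNA and untreated embryos NT and the luciferase and H3.2 mRNA embryos SCNT. The knockdown can therefore be set against the untreated and the H3.3 mRNA library within the NT label, while the other comparisons with the knockdown cross the labels.

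Aminoacyl-tRNA synthetases fall into a pair of structural classes with unrelated catalytic folds, and each class serves about the same number of amino acids. Mammalian cells have separate nuclear genes for most of the cytosolic and mitochondrial enzymes, while Gars and Kars each make an enzyme for both compartments. In the cytosol, the enzymes for arginine, aspartate, glutamate and proline, glutamine, isoleucine, leucine, lysine and methionine sit with scaffold proteins in the multi-synthetase complex. When charging falters, the kinase GCN2 (Eif2ak4) senses uncharged tRNA and raises translation of the transcription factor ATF4, and several cytosolic synthetase genes are known ATF4 targets. The early embryo translates stored maternal mRNA and then mRNA of its own, and both need charged tRNA.

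H3f3a and H3f3b, the genes of the knockdown target, summed to 467, 420.1 and 664 FPKM in the H3.3 mRNA, H3.2 mRNA and knockdown libraries, against 5734 and 5266 FPKM in the luciferase and untreated libraries. Of 12 oocyte and early embryo markers, 11 matched a symbol, and each of the 11 was above 0 in every library. Their sums were 10504, 6224 and 23120 FPKM in the H3.3 mRNA, H3.2 mRNA and knockdown libraries, against 13536 and 20897 FPKM with luciferase and in untreated embryos, of which Dppa3 alone made up 8550.2, 4818 and 19535 FPKM, against 10257 and 13794 FPKM. In the knockdown, 8 of the 11 were higher than with luciferase and 8 lower than in untreated embryos, and their part in the results was not tested. Of the 10 fibroblast markers, all were listed at 0 in the H3.3 mRNA, H3.2 mRNA and knockdown libraries, and 6 and 9 of them in the luciferase and untreated libraries, where the sums were 30.65 and 68.65 FPKM. The 10 cumulus and granulosa cell markers summed to 7.22 to 189 FPKM a library, with Has2 and Fshr at 0 in all 5 and Tnfaip6 at 185 FPKM in untreated embryos. The 8 blood and endothelium markers summed to 40.35 to 663 FPKM, all of it from Pecam1 and Hba-a1, with Ptprc and Cdh5 at 0 in all 5. The untreated library stood apart, with Pearson's r across genes of 0.740 to 0.753 to each other library, against 0.799 to 0.835 for the other pairs, so each statement that uses it stands beside the same statement with the luciferase library.

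Taken as a sum, the cytosolic synthetase mRNAs were lowest in the knockdown library. The 20 levels summed to 8313 FPKM there, against 13145 FPKM in the luciferase and 12905 FPKM in the untreated library, or 63.2% and 64.4% of the control sums. With H3.3 mRNA the sum was 13876 FPKM and with H3.2 mRNA 13247 FPKM. As a share of all FPKM in the library, which differ in total, the cytosolic genes held 0.456%, 0.537% and 0.232% in the H3.3 mRNA, H3.2 mRNA and knockdown libraries, against 0.384% and 0.363% in the luciferase and untreated libraries. The knockdown was lowest on both scales, while both add-back libraries were above the controls by more as a share than as a sum. The knockdown was the lowest of the 5 libraries for 12 of the 20 genes and the highest for none. Among the 4825 genes of the series that average 100 FPKM or more, as each cytosolic member does, the knockdown was the lowest library for 25.3% and the highest for 25.7%. The mitochondrial sums were 2429, 1986 and 2151 FPKM in the H3.3 mRNA, H3.2 mRNA and knockdown libraries, against 2113 and 2564 FPKM in the luciferase and untreated libraries, so the knockdown stood at 102% and 83.9% of the controls. As a share of all FPKM the mitochondrial genes held 0.0798%, 0.0805% and 0.0601%, against 0.0618% and 0.0721%, in the same order. On that scale the knockdown was the lowest library for the mitochondrial genes too, by little against luciferase. In whole embryos, fewer cells that hold an mRNA and less of it per cell cannot be told apart.

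**Figure D1:**
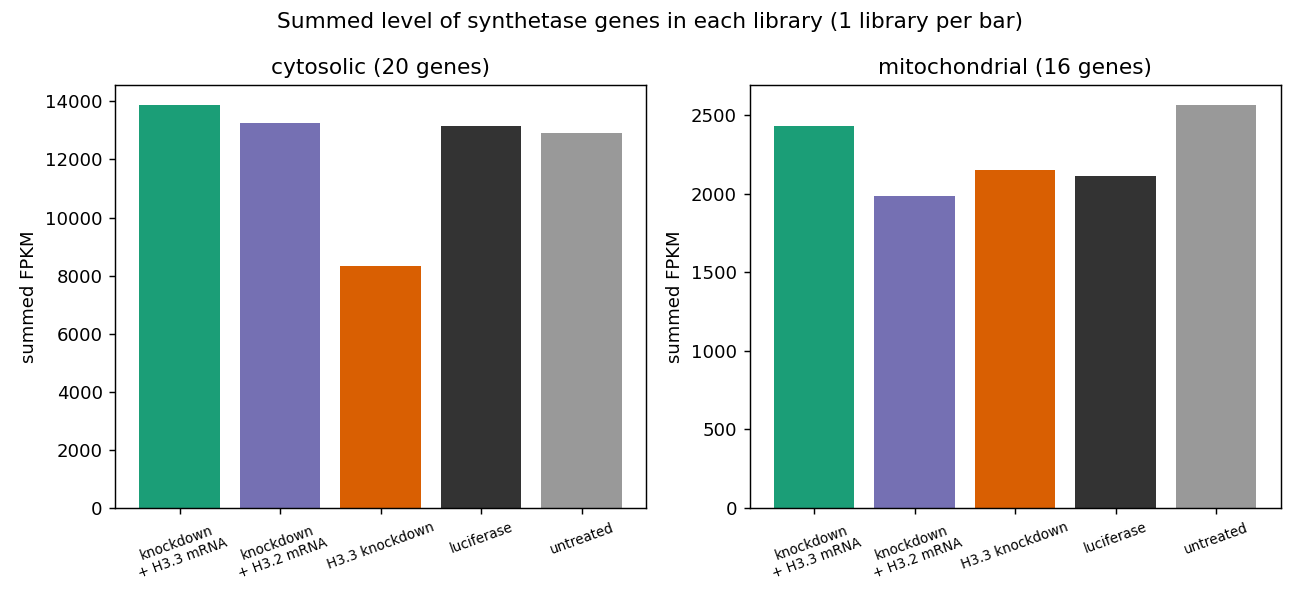
Summed FPKM of the 20 cytosolic (left) and 16 mitochondrial (right) synthetase genes in each library, with 1 library per bar and the axis from 0. The cytosolic sum is 8313 FPKM in the knockdown and lies between 12905 and 13876 FPKM in the other libraries, while the mitochondrial sums lie between 1986 and 2564 FPKM.

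The cytosolic genes were all well expressed, with means over the libraries from 111 FPKM for Vars to 1773 FPKM for Qars. Qars, the glutaminyl-tRNA synthetase, stood at 1830.4, 2080.4 and 985 FPKM in the H3.3 mRNA, H3.2 mRNA and knockdown libraries, against 2015 and 1954 FPKM in the luciferase and untreated libraries. Kars, the lysyl-tRNA synthetase, stood at 1717, 1539 and 1198 FPKM, against 1715 and 852 FPKM, in the same order. Rars, the arginyl-tRNA synthetase, stood at 2236, 1044 and 854 FPKM, against 1581 and 898 FPKM. These 3 complex members were the 3 highest cytosolic synthetases in every library except the untreated one, where Qars, Nars and Yars led. Qars and Rars were lowest in the knockdown, and Kars was lowest in the untreated library. Vars, the valyl-tRNA synthetase, had the lowest mean of the cytosolic genes and little spread, with 117, 121 and 117 FPKM in the H3.3 mRNA, H3.2 mRNA and knockdown libraries and 116 and 84.4 FPKM in the luciferase and untreated libraries.

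**Figure D2:**
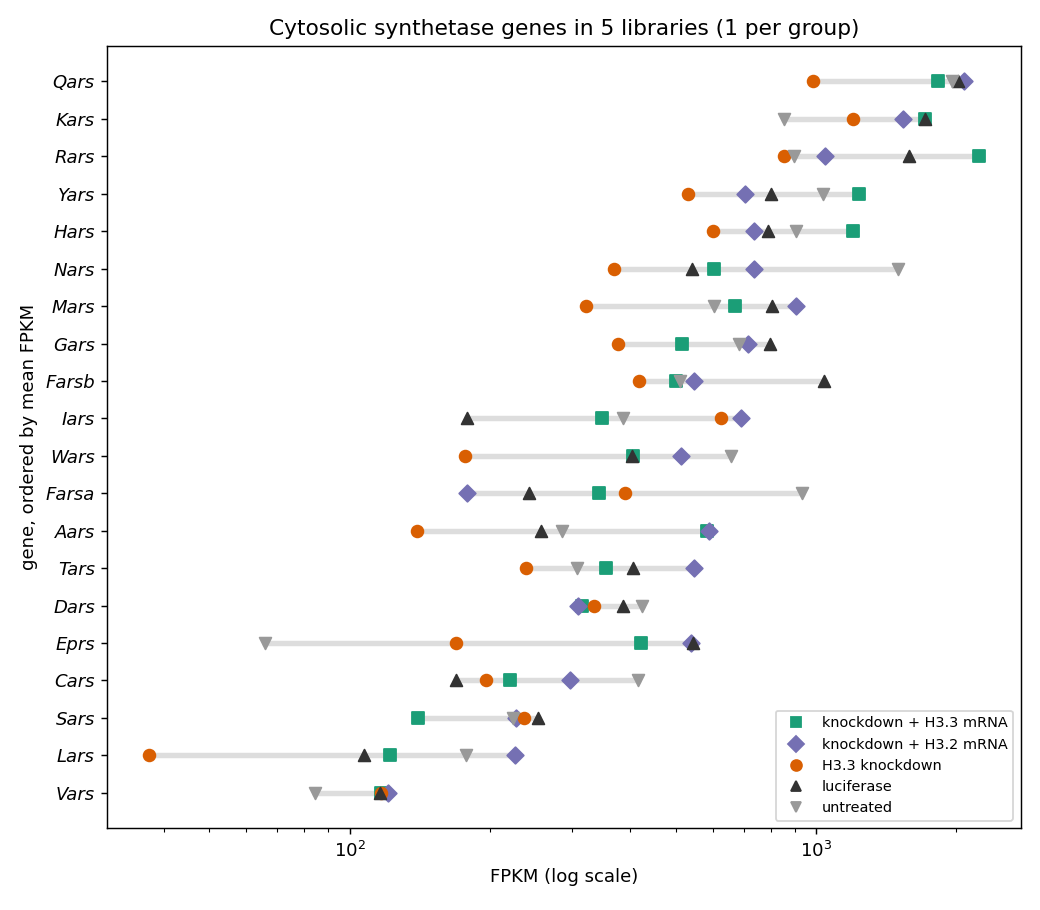
FPKM (log axis) of the 20 cytosolic synthetase genes, ordered by mean level with the highest at the top, with 1 symbol per library and grey bars for the range. The knockdown (circles) is the leftmost symbol for 12 genes, among them Lars at 37.1 FPKM and Aars at 139.5 FPKM.

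To ask how the knockdown differs from embryos that keep H3.3, each member was compared with both control libraries on the log2(FPKM + 1) scale, which understates the change of low genes. The knockdown lay below both controls for 13 cytosolic genes, between them for 5 (Cars, Eprs, Farsa, Kars and Sars) and above both for 2 (Iars and Vars). Of all genes that average 100 FPKM or more, 35.4% lay below both controls. The median difference of the cytosolic genes was -0.67 against luciferase, where all genes tested had a median of -0.12 and those that average 100 FPKM or more 0.04. Against the untreated library it was -0.73, with 0.00 and -0.17 for the same backgrounds. In the luciferase comparison 16 members were lower and 4 higher, where 48.5% of genes at that level were lower and 51.4% higher. In the untreated comparison 15 were lower and 5 higher, where 55.4% were lower and 44.6% higher. Both comparisons share the knockdown library, so their agreement is not independent.

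Most of these differences were modest, and few passed 4-fold (2 on the log2 scale), the size used here to call a gene. Against luciferase no cytosolic gene was called, where 9.74% of all genes tested were called higher and 18.9% lower, and 6.2% and 6.28% of those that average 100 FPKM or more. Against the untreated library 2 were called, both lower, where 16.8% of all genes were called higher and 15.6% lower, and 7.07% and 7.75% at the higher level. Counted in either direction, 0 of 20 and 2 of 20 cytosolic genes were called, which was no larger than the 12.5% and 14.8% of genes at the same level. Counted as lower alone, 2 of 20 was near the 7.75% at that level and under the 15.6% of all genes, so it shows no clear excess. Lars, the leucyl-tRNA synthetase, stood at 37.1 FPKM in the knockdown, against 108 and 178 FPKM in the luciferase and untreated libraries (log2 differences -1.51 and -2.23). Nars, the asparaginyl-tRNA synthetase, stood at 368 FPKM, against 543 and 1498 FPKM (-0.56 and -2.02). Both were lowest in the knockdown, but for Nars the untreated value of 1498 FPKM also stood well above the other 4 libraries. Neither call against the untreated library held with a pseudocount of 10, with quantile normalization or with the length trend removed (the running median of the differences over transcript length subtracted), where the differences lay between -1.99 and -1.77.

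Other cytosolic members were lower in the knockdown by less than 4-fold. Wars, the tryptophanyl-tRNA synthetase, stood at 177 FPKM in the knockdown, against 404 and 658 FPKM in the luciferase and untreated libraries. Mars, the methionyl-tRNA synthetase, stood at 321 FPKM, against 803 and 606 FPKM. Gars, the glycyl-tRNA synthetase, stood at 376 FPKM, against 796 and 683 FPKM. For each of these 3 the knockdown value lay below both controls and below both add-back libraries. Yars and Hars, for tyrosine and histidine, lay below both controls, with log2 differences of -0.59 and -0.39 against luciferase and of -0.96 and -0.59 against untreated embryos. Farsb, the beta subunit of phenylalanyl-tRNA synthetase, stood at 418 FPKM, against 1039 and 511 FPKM. Its partner Farsa, the alpha subunit, stood at 390.2 FPKM, against 242 and 934 FPKM, so the subunits of this enzyme did not move together in the luciferase comparison.

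The exceptions among the cytosolic genes were few. Iars, the isoleucyl-tRNA synthetase, stood at 625 FPKM in the knockdown, against 179 and 386 FPKM in the luciferase and untreated libraries, and at 348 and 689 FPKM with H3.3 mRNA and H3.2 mRNA. It was the cytosolic member with the largest difference above luciferase, at 1.80 on the log2 scale, and at 2.40, past 4-fold, with the length trend removed. Iars is also the only member with a pseudogene transcript (Gm4849) that matches it at 95% identity or more over at least 200 bases in the mouse GENCODE annotation, at 96.0% over 1656 bases, so its level is less certain. Eprs, the fused enzyme for glutamate and proline, separated the controls: it stood at 422, 539 and 169 FPKM in the H3.3 mRNA, H3.2 mRNA and knockdown libraries, against 545 FPKM with luciferase and 65.8 FPKM in untreated embryos. Its direction in the knockdown thus depended on the control chosen, and it was the only cytosolic member at least 4-fold apart between the controls.

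The add-back libraries ask what follows when knockdown embryos also receive H3.3 or H3.2 mRNA, and both stood above the knockdown for 15 of the 20 cytosolic genes. Of all genes that average 100 FPKM or more, 36.2% stood above the knockdown in both. With H3.3 mRNA the median difference from the knockdown was 0.64, with 15 genes higher and 5 lower, where all genes tested had a median of 0.00 and those that average 100 FPKM or more -0.08. At that level 47.7% of genes were higher and 52.3% lower. With H3.2 mRNA it was 0.50, with 17 higher and 3 lower, where the same medians were 0.15 and -0.20 and 44.1% of genes at that level were higher and 55.8% lower. These differences share the knockdown library with those against the controls, and a low value there moves both. Against luciferase, which does not use the knockdown library, the cytosolic medians were 0.00 for the H3.3 mRNA and 0.01 for the H3.2 mRNA library, where those of genes that average 100 FPKM or more were -0.01 and -0.18. No cytosolic gene was called in either, where 21.2% and 20.3% of all genes were called, and 5.43% and 4.89% of those that average 100 FPKM or more. Against the untreated library the cytosolic medians were -0.06 and 0.10, where those of the genes at that level were -0.22 and -0.38. Eprs was called higher there with H3.3 mRNA and H3.2 mRNA, at 2.66 and 3.02, and Farsa lower with H3.2 mRNA, at -2.38, where 34.4% and 36.8% of all genes were called (16% and 16.9% at that level).

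In single genes, 1 cytosolic member was called with H3.3 mRNA, where 16.4% of all genes were called higher and 10.1% lower (5.2% and 5.47% of those that average 100 FPKM or more). With H3.2 mRNA 2 were called, where 19.5% were called higher and 9.11% lower (4.19% and 7.34%). Aars, the alanyl-tRNA synthetase, was called in both: it stood at 583 and 591 FPKM in the H3.3 mRNA and H3.2 mRNA libraries, against 139.5 FPKM in the knockdown (2.05 and 2.07 on the log2 scale). The controls lay between, at 257 FPKM with luciferase and 286 FPKM in untreated embryos, so both add-back values exceeded both controls. With the length trend removed the differences were 1.34 and 0.93, under the threshold, and with a pseudocount of 10 the first was 1.99. Exons of Aars overlap Exosc6 on the same strand in the GENCODE annotation, so its level is less certain. Lars stood at 226 FPKM with H3.2 mRNA, against 37.1 FPKM in the knockdown (2.58, and 1.95 with the length trend removed), and at 122 FPKM with H3.3 mRNA (1.69). Sars, Dars and Farsa, for serine, aspartate and phenylalanine, were lower than the knockdown in both add-back libraries, with log2 differences of -0.75, -0.08 and -0.19 in the H3.3 mRNA library and of -0.06, -0.11 and -1.13 with H3.2 mRNA. Dars was also among the steadiest members, with all 5 values between 309 and 424 FPKM.

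**Figure D3:**
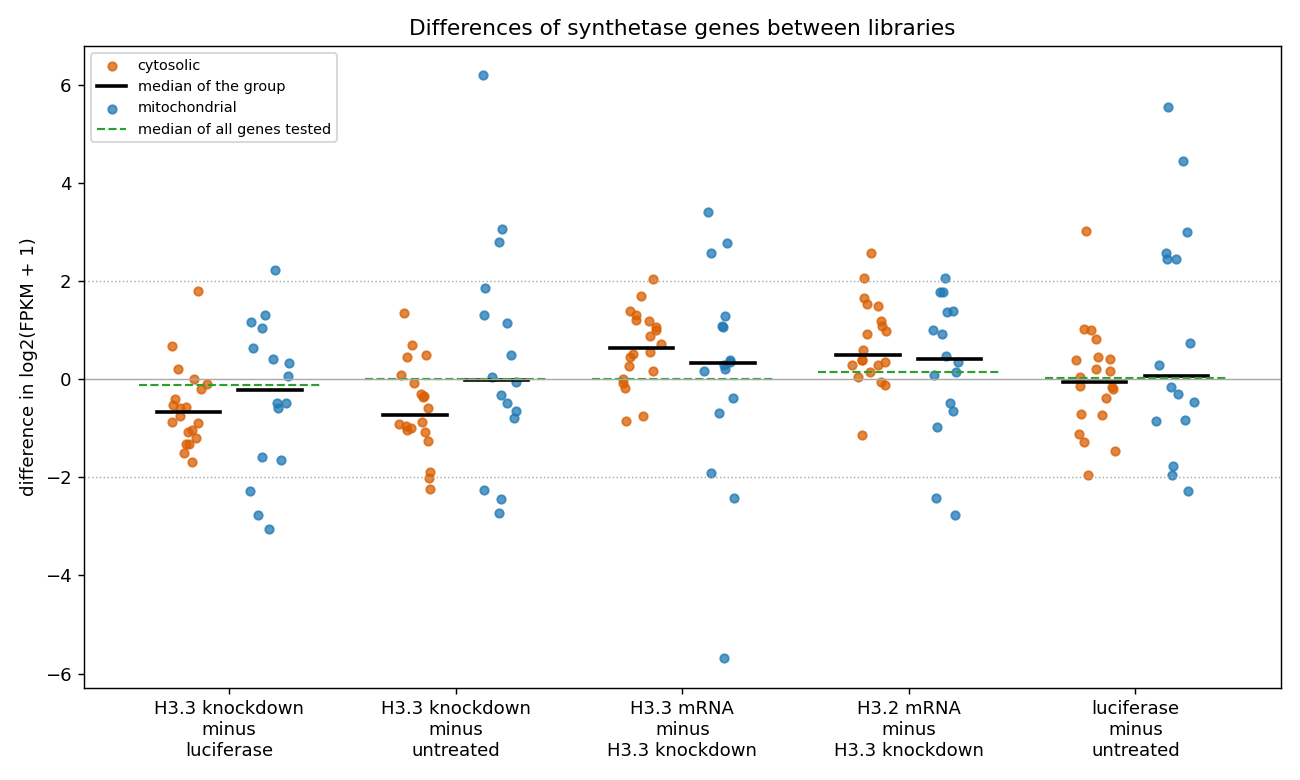
Differences in log2(FPKM + 1) for 5 comparisons, each library named first minus the library named second, with 1 point per gene, black bars for the medians of the 20 cytosolic and 16 mitochondrial genes, a dashed green line for the median of all genes tested and dotted lines at 4-fold. The cytosolic medians are -0.67 and -0.73 for the knockdown against the controls and 0.64 and 0.50 for the add-back libraries against the knockdown, while the mitochondrial points spread more widely.

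Members of the multi-synthetase complex were compared with the other cytosolic enzymes. The 8 complex members summed to 4524 FPKM in the knockdown, against 7331 FPKM with luciferase and 5363 FPKM in untreated embryos. The 12 other cytosolic genes summed to 3789.6 FPKM, against 5814 and 7541 FPKM. The complex members' median difference was -0.96 against luciferase and -0.21 against untreated embryos, and that of the others -0.57 and -0.91, so which group lay lower depended on the control. The 3 genes for the complex's non-enzymatic partners were higher in the knockdown than in untreated embryos. Aimp2 stood at 1669 FPKM in the knockdown, against 1072 and 149 FPKM in the luciferase and untreated libraries. Eef1e1, also called AIMP3, stood at 1577 FPKM, against 929.7 and 993 FPKM. Aimp1 stood at 687 FPKM, against 1328 and 524 FPKM, and was the one partner below luciferase. With H3.3 mRNA, Aimp2, Eef1e1 and Aimp1 stood at 2151, 811 and 918 FPKM, so that Eef1e1 alone was lower than in the knockdown. With H3.2 mRNA all 3 were lower than in the knockdown, at 936, 445 and 577 FPKM. By class, the 9 class I genes had medians of -0.89 and -0.96 against luciferase and untreated embryos and the 10 class II genes -0.54 and -0.48, with Eprs, which holds a domain of each class, left out.

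Because the cytosolic genes include known ATF4 targets, their promoters were searched for the core TGATGNAA of the C/EBP-ATF response element, on both strands, from 250 bases before to 50 bases after the gene start (RefSeq, GRCm38.p6). Promoters were present for 27 of the 36 members. Counted by gene, the core was found for 5 of 13 cytosolic members (38.5%), 0 of 14 mitochondrial members and 5 of 15 genes of the ATF4 arm. Counted by promoter, it was found in 3.97% of all 32851 promoters. A gene can have several promoters, so these shares are of unlike units. The matches of Gars, Iars, Tars and Yars are shown, since the core is what these promoters share, each as 30 bases 5′ to 3′ in the direction of the core, with the 8 bases of the core in capitals. A match describes these letters only and says nothing of binding.
Gars, chr6:55037960-55037989, minus strand: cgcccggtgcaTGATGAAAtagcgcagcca
Iars, chr13:49682126-49682155, minus strand: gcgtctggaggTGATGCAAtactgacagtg
Tars, chr15:11399655-11399684, plus strand: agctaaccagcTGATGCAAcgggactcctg
Yars, chr4:129189895-129189924, plus strand: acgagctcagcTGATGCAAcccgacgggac

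The 5 genes with the core did not share a direction in the knockdown: Aars, Gars, Tars and Yars lay below both controls, and Iars above both. Tars, the threonyl-tRNA synthetase, stood at 354, 547 and 239 FPKM in the H3.3 mRNA, H3.2 mRNA and knockdown libraries, against 405 and 308 FPKM with luciferase and in untreated embryos. Atf4 mRNA stood at 2763, 2260.1 and 2943 FPKM in the H3.3 mRNA, H3.2 mRNA and knockdown libraries, against 2525 and 2530.0 FPKM in the controls, and ATF4 is known to be regulated mainly at translation. Of the 18 genes listed for GCN2 and the ATF4 arm, 17 passed the filter. In the knockdown none was called against luciferase, with 10 higher and 6 lower, where 28.6% of all genes were called. Against untreated embryos 1 was called higher and 3 lower, with 5 higher and 11 lower in all, where 32.5% of all genes were called. Asns, the asparagine synthetase and a textbook ATF4 target, stood at 119, 562 and 183 FPKM, against 229.9 and 329 FPKM, which was lowest with H3.3 mRNA. Trib3, another target, was higher in the knockdown, at 364 FPKM against 262 and 65.5 FPKM.

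The mitochondrial synthetases were lower in level and more variable, and showed no shared direction in the knockdown. Their means ran from 6.36 FPKM for Vars2 to 505 FPKM for Cars2, and the log2 difference between the highest and lowest library was 2.61 at the median, against 1.30 for the cytosolic genes. At least 4-fold lay between the highest and lowest library for 13 of 16 mitochondrial genes (81.2%) and 5 of 20 cytosolic genes (25%). The genes of the series with means in the same range as the mitochondrial set had a median of 2.93 and 70.8% past 4-fold, and those in the range of the cytosolic set 1.80 and 41.4%. The knockdown lay below both controls for 6 mitochondrial genes, above both for 6 and between them for 4. Of all 13144 genes tested, 29.8% lay below both controls and 3526 genes above both. Their median difference in the knockdown was -0.21 against luciferase and -0.01 against untreated embryos, where the medians of all genes tested were -0.12 and 0.00.

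**Figure D4:**
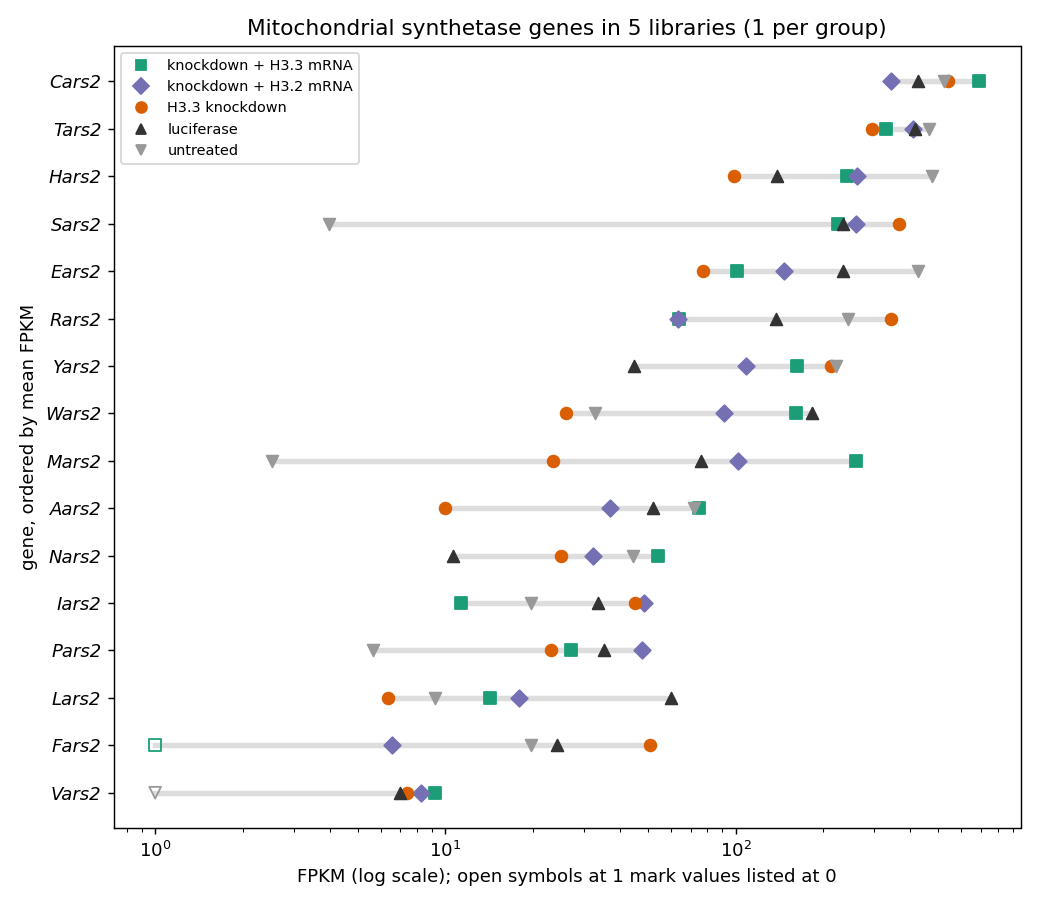
FPKM (log axis) of the 16 mitochondrial synthetase genes, ordered by mean level with the highest at the top, with 1 symbol per library, grey bars for the range and open symbols at 1 for values listed at 0. Sars2 stands at 3.98 FPKM and Mars2 at 2.53 FPKM in the untreated library, far to the left of the other libraries.

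Cars2, Tars2 and Hars2 had the highest means of the group. Cars2, the cysteinyl-tRNA synthetase of mitochondria, stood at 692, 344 and 539 FPKM in the H3.3 mRNA, H3.2 mRNA and knockdown libraries, against 427 and 524 FPKM in the luciferase and untreated libraries. Tars2, for threonine, stood at 331, 409 and 296 FPKM, against 414 and 465 FPKM. Hars2, for histidine, stood at 241, 262 and 98.7 FPKM, against 139 and 476 FPKM. Cars2 was highest with H3.3 mRNA and lowest with H3.2 mRNA, while Tars2 and Hars2 were lowest in the knockdown and highest in untreated embryos.

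Against luciferase, 4 mitochondrial genes were called in the knockdown, 3 lower and 1 higher, where 28.6% of all genes tested were called. Against untreated embryos 6 were called, 3 lower and 3 higher, where 32.5% were called. Both counts of 16 were near the share of all genes. Only Aars2, the alanyl-tRNA synthetase of mitochondria, was at least 4-fold lower than both controls, which 6.35% of all genes tested were. It stood at 9.99 FPKM in the knockdown, against 52 and 71.8 FPKM with luciferase and in untreated embryos (-2.27 and -2.73), and the call against luciferase did not hold with a pseudocount of 10. With H3.3 mRNA and H3.2 mRNA it stood at 75 and 36.8 FPKM, so Aars2 and its cytosolic counterpart Aars were both lowest in the knockdown. Ears2, for glutamate, stood at 101, 147 and 77.2 FPKM in the H3.3 mRNA, H3.2 mRNA and knockdown libraries, against 235 and 426 FPKM in the controls, and Hars2, given above, was the other gene called lower against untreated embryos alone, at -2.45 and -2.26 on the log2 scale. The Hars2 call did not hold with quantile normalization (-1.87).

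A second set of mitochondrial genes was low in the knockdown and in the untreated library alike. Wars2, for tryptophan, stood at 161, 91.3 and 26 FPKM in the H3.3 mRNA, H3.2 mRNA and knockdown libraries, against 183 and 32.7 FPKM with luciferase and in untreated embryos. Lars2, for leucine, stood at 14.3, 17.9 and 6.32 FPKM, against 59.8 and 9.18 FPKM. Their calls in the knockdown were therefore made against luciferase alone (-2.77 and -3.05). Yars2, for tyrosine, was the gene called higher against luciferase, with 163, 108 and 213 FPKM, against 44.8 and 221 FPKM, and here the luciferase library was the low one.

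Several large differences lay between the untreated library and the other 4. Sars2, the seryl-tRNA synthetase of mitochondria, stood at 226, 259.9 and 366 FPKM in the H3.3 mRNA, H3.2 mRNA and knockdown libraries and 234 FPKM with luciferase, against 3.98 FPKM in untreated embryos. Mars2, for methionine, stood at 259, 102, 23.6 and 76.2 FPKM in the same libraries, against 2.53 FPKM in untreated embryos. Vars2, for valine, lay between 6.97 and 9.23 FPKM in those 4 libraries and was listed at 0 in untreated embryos. These are the 3 genes called higher in the knockdown against untreated embryos, and each was also called higher with luciferase. With a pseudocount of 10 the knockdown differences were 1.42 for Mars2 and 0.80 for Vars2, under the threshold. Against the untreated library, luciferase was called higher for 6 mitochondrial genes (Lars2, Mars2, Pars2, Sars2, Vars2 and Wars2) and lower for 1 (Yars2), where 23.5% of all genes were called higher and 13.4% lower. Lars2, Pars2 and Vars2 were not called with a pseudocount of 10 (1.86, 1.53 and 0.76), nor Lars2, Pars2 and Yars2 with quantile normalization (1.93, 1.53 and -1.98). Pars2, for proline, stood at 27, 47.8 and 23.2 FPKM in the H3.3 mRNA, H3.2 mRNA and knockdown libraries and at 35.3 FPKM with luciferase, against 5.65 FPKM in untreated embryos.

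Most mitochondrial genes were also higher in the add-back libraries than in the knockdown, 11 of 16 in each and 10 of 16 in both. Of all genes tested, 36.9% were higher in both, and both comparisons share the knockdown library. The mitochondrial median was 0.33 for the H3.3 mRNA library and 0.41 for the H3.2 mRNA library, where all genes tested had 0.00 and 0.15. Genes with means in the same range as the mitochondrial set had medians of 0.15 and 0.27, nearer to those values. Of these genes, 53.5% and 56.7% were higher than in the knockdown. Removing the length trend gave mitochondrial medians of -0.02 and -0.09, with 8 and 7 of 16 genes higher. Several mitochondrial genes passed 4-fold. With H3.3 mRNA, Aars2, Mars2 and Wars2 were called higher and Fars2 and Rars2 lower. With H3.2 mRNA, Mars2 was called higher and Fars2 and Rars2 again lower. These are 5 and 3 of 16 genes, near the 26.4% and 28.6% of all genes called in these comparisons. Rars2, the arginyl-tRNA synthetase of mitochondria, stood at 63.8 and 63.2 FPKM with H3.3 mRNA and H3.2 mRNA, against 344 FPKM in the knockdown, and at 137 and 243 FPKM in the luciferase and untreated libraries, so both add-back values lay below every other library. Fars2, for phenylalanine, was listed at 0 with H3.3 mRNA and stood at 6.54 FPKM with H3.2 mRNA, against 50.6 FPKM in the knockdown and 24.2 and 19.7 FPKM in the controls. Mars2 was higher by 3.40 in the H3.3 mRNA and 2.06 in the H3.2 mRNA library on the log2 scale, and the difference with H3.2 mRNA was under the threshold with the length trend removed (0.56), with a pseudocount of 10 (1.73) and with quantile normalization (1.89). The Fars2 difference with H3.2 mRNA was -1.87 with a pseudocount of 10. The remaining mitochondrial genes, Iars2 and Nars2, were called in no comparison of the knockdown with a control or add-back library, nor between the controls. They lay between 10.6 and 54.1 FPKM in all libraries. With H3.3 mRNA, Nars2 was called higher than luciferase (2.24) and Fars2 lower (-4.65), and no mitochondrial gene was with H3.2 mRNA. Against untreated embryos, H3.3 mRNA gave 5 calls higher and 2 lower (Ears2 and Fars2, -2.06 and -4.37). H3.2 mRNA gave 4 higher and 0 lower. With H3.3 mRNA, Iars2 was past 4-fold lower than the knockdown with the length trend removed (-2.57) and with quantile normalization (-2.31). For luciferase against untreated embryos, Nars2 was past 4-fold lower under the same settings (-2.07 and -2.22).

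Other genes of tRNA charging, maturation and export were listed for context. Of 8 other charging enzymes, 4 were higher and 4 lower in the knockdown than with luciferase, with a median difference of 0.11. Sepsecs and Tarsl2 were called lower there and none higher, while against untreated embryos 3 were called higher and 0 lower. Sepsecs, which makes selenocysteinyl-tRNA, was listed at 0 in the knockdown and in untreated embryos, and stood at 89.7, 41.5 and 29 FPKM in the H3.3 mRNA, H3.2 mRNA and luciferase libraries. Of 13 genes of tRNA end maturation and export, none was called against luciferase, and 3 were called higher and 1 lower against untreated embryos, where 28.6% and 32.5% of all genes were called. Xpot, the exportin of tRNA, stood at 161, 163 and 83 FPKM, against 269 and 143 FPKM, and was lowest in the knockdown. Of 4 editing and deacylation genes 3 matched a symbol, and all 3 were lower than the knockdown in both add-back libraries. So were 4111 of all 13144 genes tested, and 2140 of the 4825 that average 100 FPKM or more, and both comparisons share the knockdown library. Aarsd1, an alanyl-tRNA editing protein, stood at 187 and 137 FPKM with H3.3 mRNA and H3.2 mRNA, against 444 FPKM in the knockdown. It stood at 339 FPKM with luciferase and was listed at 0 in untreated embryos, so its largest difference involved the untreated library.

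A trend with transcript length ran through the same comparisons. Over 4789 genes of known length that average 100 FPKM or more, the rank correlation of length with the difference was -0.42 for the knockdown against luciferase, -0.24 against untreated embryos, and 0.46 and 0.54 for H3.3 mRNA and H3.2 mRNA against the knockdown. These correlations run across genes, which are not independent, and show shorter transcripts standing relatively higher in the knockdown. The cytosolic synthetases had a median longest transcript of 3066 bases, longer than the 2706 bases of those genes and shorter than the 3184 bases of all genes tested. Within the 20 cytosolic genes the same correlation was 0.10 and 0.06 for the knockdown against luciferase and untreated embryos. For H3.3 mRNA and H3.2 mRNA against the knockdown it was 0.01 and 0.29. With the running median over length removed, the cytosolic medians were -0.49 and -0.68 for the knockdown against luciferase and untreated embryos and 0.54 and 0.44 for the add-back libraries, with 15 of 20 genes below luciferase and 15 below untreated embryos in the knockdown. That running median was taken over all genes tested of known length, not over the 4789 genes above. It left some members unchanged, such as Dars and Kars at -0.20 and -0.52 against luciferase. The trend among genes that average 100 FPKM or more may therefore remain in part. The part of transcript length or RNA quality in the result was not tested beyond this. FPKM is relative to the library, so less mRNA of these genes and more of others cannot be told apart. Exons of 9 members overlap another listed gene in the GENCODE annotation, so levels of these members are less certain. Among them are Hars with Hars2 and Mars with Ddit3, on opposite strands, and no source used here says whether the counting used strand. Aars overlaps Exosc6 on the same strand, where counting by strand would not separate the genes.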

How the data were processed

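RNA-seq values of 5 libraries of mouse 4-cell nuclear transfer embryos were used, 1 per group, prepared with TruSeq kits and sequenced from 1 end for 51 bases (per the labels' protocols). FPKM values were deposited by the authors, 1 per gene symbol in each library; the submitters' processing notes name TopHat, Cufflinks and mm9 without versions. Depth is unknown, so no counting interval is given. No pair of libraries was identical.

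Differences were taken as log2(FPKM + 1) over genes that average 1 FPKM or more, a gene was called at 4-fold (2 on the log2 scale), and medians of the cytosolic and mitochondrial genes were set beside those of all genes tested or of genes at the same level. With 1 library per group there is no test, which left no paired or replicate analysis. By rule, values are given for members 4-fold from both controls in the knockdown, 4-fold apart between an add-back library and the knockdown or between the controls, or among the 3 highest means of the cytosolic or mitochondrial group, and for genes of listed pathways. Other members (Cars, Dars, Farsa, Farsb, Gars, Hars, Iars, Mars, Nars, Sars, Tars, Vars, Wars, Yars, Ears2, Iars2 and Nars2) were named after their values were seen. The members and lists were chosen with earlier results of these data known. Transcript lengths came from GENCODE M21 for 98.9% of genes tested, and pseudogene and overlap searches used the same annotation, whose build differs from mm9. Promoters came from RefSeq (GRCm38.p6), and the motif was chosen with the values known. Some items of the gene lists and promoters are not reported here. Calls were tested on simulated data. Python 3.11.15, pandas 2.3.3, scipy 1.17.1 and matplotlib 3.10.9 were used.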

Additional observations from a re-analysis of the deposited data

How the results depend on the processing

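Each of 15 results, which are the median difference of the cytosolic and of the mitochondrial genes and the number of members called in 5 comparisons, was recomputed under 5 alternatives, 75 values in all. A median counted as moved when it shifted by 1.5-fold or more, a count when it differed by over 1.5 times. Of the 75 values, 62 were unchanged by these measures, 5 moved and 8 changed sign. Dropping the filter could not change any of the 15 results, since every member passed it. The cytosolic medians for the knockdown against both controls and for both add-back libraries against the knockdown kept their sign under all 5. Neither dropping the filter nor keeping genes above 0 in all 5 libraries could change these cytosolic medians, since the same 20 genes remained with the same values. With the length trend removed, the mitochondrial medians turned to 0.21 and 0.0339 for the knockdown against luciferase and untreated embryos, to -0.0193 and -0.0905 for H3.3 mRNA and H3.2 mRNA against the knockdown, and to -0.0058 for luciferase against untreated embryos. With quantile normalization, the mitochondrial median for the knockdown against untreated embryos was 0.23 and the cytosolic median for luciferase against untreated embryos 0.15. Over genes above 0 in all 5 libraries, the mitochondrial median for luciferase against untreated embryos was -0.23. The main values of those medians lay between -0.21 and 0.41. For the knockdown against untreated embryos, 8 members were called, and 4 with a pseudocount of 10 and 4 with quantile normalization. For H3.2 mRNA against the knockdown, 5 were called, and 3 with a pseudocount of 10 and 2 with the length trend removed. For luciferase against untreated embryos, 8 were called, and 5 with a pseudocount of 10. A larger pseudocount shrinks differences of low genes by construction; the cause of the other shifts was not tested. No paired analysis was possible because each group is 1 library, which also left no library to leave out within a group.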

Other observations

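The balance of cytosolic over mitochondrial mRNA for the same amino acid varied widely. For cysteine the mitochondrial gene was the higher one in every library, with Cars at 0.319, 0.861 and 0.365 times the level of Cars2 in the H3.3 mRNA, H3.2 mRNA and knockdown libraries, and 0.397 and 0.792 times in the luciferase and untreated libraries. For threonine the genes were nearly level, with Tars over Tars2 at 1.07, 1.34 and 0.81 in the same libraries and 0.979 and 0.662 in the controls. For serine, Sars over Sars2 lay between 0.621 and 1.085 in 4 libraries, against 56.3 in untreated embryos, where Sars stood at 224 FPKM and Sars2 at 3.98 FPKM. For methionine, Mars over Mars2 was 2.585 with H3.3 mRNA, 8.93 with H3.2 mRNA, 13.6 in the knockdown and 10.5 with luciferase, against 239 in untreated embryos. For glutamate, Eprs over Ears2 was 4.16, 3.66, 2.195 and 2.32 in those libraries, against 0.1545 in untreated embryos. These ratios are on the FPKM scale and have no replicate, and the extreme ones for serine and methionine rest on low values of the mitochondrial gene.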
